A study of Mus musculus with 3 samples.

Results

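The 40 mitosis genes followed here encode the machinery that condenses, captures and separates chromosomes and then divides the cell. They were taken by symbol from the gene tables of 3 single-cell libraries. The list took no measured value as a criterion, but it was chosen with earlier results of these data known. All 40 of the 27998 genes per table were found, and all 40 had UMIs (unique transcript counts). Each library was 10x Chromium v2 mRNA from cells sorted from C57BL/6 mouse bone marrow, with 1 library per group. ALP cells, the all-lymphoid progenitors, came from Tcf7EGFP/+ mice through a gate for Kit+ 2B4+ Lin- cells that were a4b7-, Flt3high and IL-7Ra+. ILCpro_WT cells, progenitors of innate lymphoid cells (ILCs) that the source label calls EILP_WT, also came from Tcf7EGFP/+ mice, with the gate Lin- Kit+ 2B4+ a4b7+ Tcf7+. ILCpro_KO cells (EILP_KO) were sorted through that same gate from Tcf7EGFPnull/- mice. "WT" is therefore a reporter heterozygote, and no library came from mice without the reporter allele. Tcf7 encodes TCF-1, a transcription factor of T cell and ILC progenitors. With 1 library per group no difference below has a replicate check or a test, and the labels do not give the number of mice behind a library.

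Entry into mitosis is driven by the kinase CDK1 bound to cyclin A or cyclin B, and exit follows when the anaphase-promoting complex (APC/C) marks cyclins for destruction. Most of these genes are transcribed in G2 and M phase and repressed in resting cells. The repression and the late peak are known to run through the MuvB complexes DREAM and MMB-FOXM1, which bind the cell cycle genes homology region (CHR), and through NF-Y, which binds CCAAT boxes. In bone marrow, mitosis genes mark the progenitors that are dividing at the time of the sort.

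All 40 genes were lower in ILCpro_WT than in ALP. Their promoters are shown first, for motifs that most but not all of them hold. RefSeq gave a window from 250 bases before to 50 bases after the start (GRCm38.p6) for 35 of the 40, and Aurkb, Ccna2, Kif20a, Smc4 and Tpx2 had none. Both strands were searched for the CHR core, spelled TTTGAA in one form and as TTCGAA in another, and for the NF-Y box, spelled CCAAT. The second form of the CHR core reads the same on both strands, and neither motif contains the other. Of the 35 members 25 (71.4%) held a CHR core from 50 bases before to 50 bases after the start, against 6.12% of the 27025 genes with a window and 4.59% of the 7568 with a level of at least 5 CPM (UMIs scaled to 1000000 per library) in a library. An NF-Y box in the 150 bases before the start was found in 26 members (74.3%), against 28.0% and 32.8%. Both were found in 21 members (60.0%), against 1.68% and 1.72%. A match of letters is a description and not a measured binding site. Below, 4 members that hold both motifs are printed with Cks2, the member that differed least between ALP and ILCpro_WT. The 150 bases before the start are given 5′ to 3′ on the gene's strand, and capitals mark the motifs. A CHR core on the opposite strand reads TTCAAA here, whereas an NF-Y box on that strand reads ATTGG.
Cdk1, chr10:69352913-69353062, minus strand: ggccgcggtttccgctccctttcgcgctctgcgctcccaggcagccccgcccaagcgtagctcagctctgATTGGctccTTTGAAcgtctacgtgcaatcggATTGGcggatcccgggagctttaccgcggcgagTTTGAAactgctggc
Top2a, chr11:99024190-99024339, minus strand: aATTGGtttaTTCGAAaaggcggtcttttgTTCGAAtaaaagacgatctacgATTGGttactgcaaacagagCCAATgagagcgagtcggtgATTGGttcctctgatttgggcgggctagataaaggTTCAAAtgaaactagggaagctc
Cdc20, chr4:118437344-118437493, minus strand: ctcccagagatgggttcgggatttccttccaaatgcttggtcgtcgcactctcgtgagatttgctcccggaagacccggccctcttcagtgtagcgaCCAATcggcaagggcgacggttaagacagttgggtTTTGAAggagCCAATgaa
Kif11, chr19:37376232-37376381, plus strand: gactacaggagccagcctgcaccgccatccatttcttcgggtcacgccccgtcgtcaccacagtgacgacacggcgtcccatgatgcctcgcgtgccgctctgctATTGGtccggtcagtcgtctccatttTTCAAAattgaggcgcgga
Cks2, chr13:51645082-51645231, plus strand: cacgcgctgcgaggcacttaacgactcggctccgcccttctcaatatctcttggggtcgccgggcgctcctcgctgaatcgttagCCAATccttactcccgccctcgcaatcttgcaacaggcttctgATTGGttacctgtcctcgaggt
The CHR core nearest the start lay at position -15 in Cdk1, -23 in Top2a, -18 in Cdc20 and -19 in Kif11, counting the base before the RefSeq start as -1. For Kif11, and for 12 of the members' 38 windows in all, the 40 bases after that start matched no GENCODE transcript, so another annotation may place the start elsewhere. NF-Y boxes lay upstream of it at -48 in Cdk1, -58 in Top2a, -53 in Cdc20 and -45 in Kif11. In these bases Cks2 held NF-Y boxes at -65 and -22, with no CHR core in its window. The other members without a CHR core within 50 bases of the start were Birc5, Ccnb1, Cenpe, Ckap2, Kif2c, Mki67, Nuf2, Nusap1 and Tacc3. Their log2 ratios of ILCpro_WT over ALP (10 CPM added) varied. Ccnb1 stood at -1.56 and Nusap1 at -1.37, against -0.73 for Ckap2 and -0.51 for Cks2. Whether the size of the difference goes with the motif was not tested.

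After removal of cells with under 500 genes or over 10% mitochondrial UMIs, 810 ALP, 1829 ILCpro_WT and 716 ILCpro_KO cells remained, with 4115605, 6094683 and 4384061 UMIs. The median cell held 4544.5, 2897 and 5309 UMIs, so ILCpro_WT was the shallowest. ILCpro_WT shared 4 barcodes with ALP and 1 with ILCpro_KO. Tcf7 stood at 1.46, 362 and 57.3 CPM in ALP, ILCpro_WT and ILCpro_KO, and since the deleted part is not named in the labels, its 3′ tags check nothing. Genes of the gates were present in all 3 libraries: Kit at 22.8 to 66.1 CPM, Cd244 (2B4) at 43.5 to 89.9 CPM, and Itga4 and Itgb7 (a4b7), which were lowest in ALP at 167 and 24.3 CPM. Cells with at least 3 of 1000 UMIs from marker genes of another lineage made up 5.80% of ALP, 6.52% of ILCpro_WT and 29.3% of ILCpro_KO cells. In ILCpro_KO these were mostly neutrophil-monocyte (128 cells) and conventional dendritic (65 cells).

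Summed over the 40 genes, mitosis RNA was highest in ALP, lowest in ILCpro_WT and intermediate in ILCpro_KO. In ALP it took 4499 CPM (exact 95% Poisson interval 4434 to 4564). The ILCpro_KO cells had 3196 CPM (3143 to 3249), and those of ILCpro_WT 2002 CPM (1966 to 2037). ILCpro_KO was 1.60-fold above ILCpro_WT (exact conditional binomial interval 1.56 to 1.64). ILCpro_WT was 2.25-fold below ALP (2.20 to 2.30) and ILCpro_KO 1.41-fold below ALP (1.38 to 1.44). Here and below an interval describes counting error alone, because the cells of a library do not replicate a condition. The 3 comparisons share libraries, so they are not independent of each other. Each of the 7 role groups had the same order of libraries, and their ratios of ILCpro_KO to ILCpro_WT ran from 1.49 (chromosome structure) to 1.66 (spindle).

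Members were counted as past 1.5-fold on a log2 ratio with 10 CPM added to both levels, among genes with at least 5 CPM in either library. In ILCpro_KO against ILCpro_WT 22 of 40 members were past it upward, against 6.44% of the 9551 genes tested, and 0 of 40 downward, against 2.64%. The median log2 ratio was 0.61 over the members and 0.09 over all genes. All 40 members were higher in ILCpro_KO, from Prc1 at 0.35 to Ccnb1 at 1.08. Top2a at 0.59 was the last member inside the threshold and Birc5 at 0.58 the first outside it. In ILCpro_WT against ALP 39 of 40 members were past 1.5-fold downward, against 9.61% of genes, and 0 upward, against 5.27%. The median was -1.01, against -0.07 over all genes, and Cks2 at -0.51 was the member not past the threshold. In ILCpro_KO against ALP 7 of 40 were past it downward, against 4.67% of genes, and 0 upward, against 5.45%. Those 7 were Nusap1, Cenpf, Prc1, Cdc20, Kif11, Ect2 and Cdk1. Here 39 members were lower and Cep55 stood at 0.03, with a median of -0.44 over the members. The count of 22 was 6 (6.06% of all genes) among cells with at least 1000 genes and at most 5% mitochondrial UMIs and 1 (1.48%) at 2-fold. Without cells of other lineages the count of 7 was 13 (5.56%), and 0 members were higher in ILCpro_KO than in ALP.

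**Figure D1:**
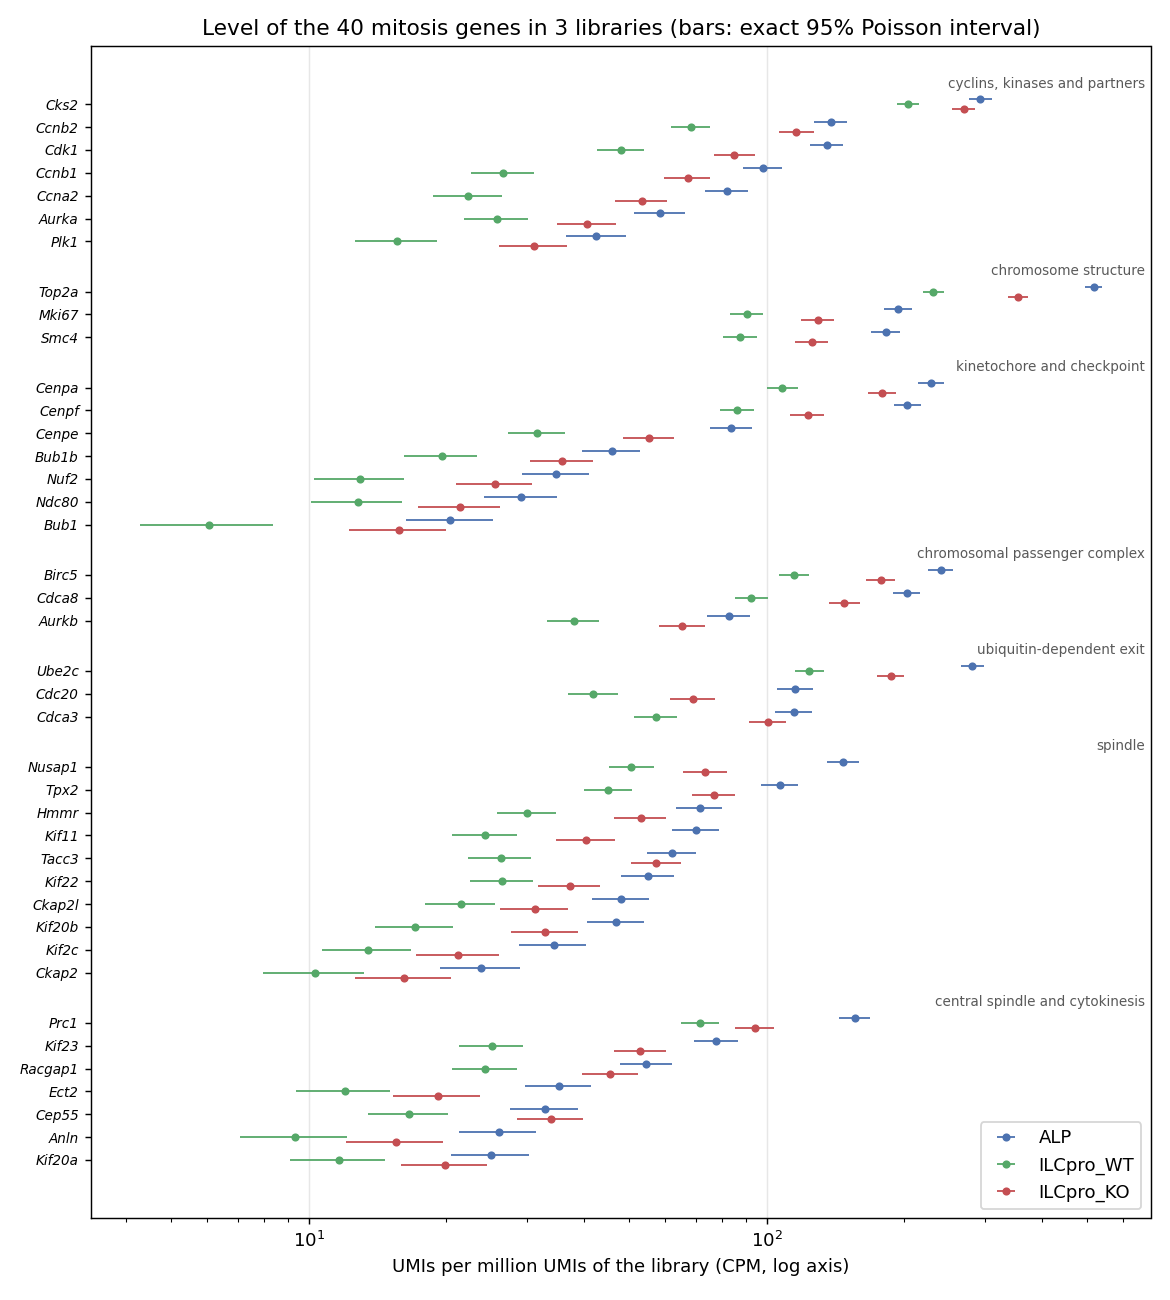
Level of each of the 40 mitosis genes in the ALP, ILCpro_WT and ILCpro_KO libraries, in CPM on a log axis, grouped by role, with exact 95% Poisson intervals as bars. ILCpro_WT is the lowest library for all 40 genes, and ILCpro_KO lies between it and ALP for all but Cep55.

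Of the cyclins, kinases and their partners, Cdk1 (ENSMUSG00000019942, chromosome 10, 69335146 to 69352938), the kinase that starts mitosis, stood at 135 CPM (124 to 147) in ALP. Its level was 48.1 CPM (42.7 to 53.9) in ILCpro_WT, against 85.1 CPM (76.7 to 94.2) in ILCpro_KO. The 3 intervals did not overlap, and the ILCpro_KO level was 1.77-fold that of ILCpro_WT (1.51 to 2.07). Of the cyclins, Ccnb1 and Ccna2 differed more than Cdk1 and Ccnb2 less. Ccnb1, cyclin B1, stood at 98.2 CPM (88.8 to 108), 26.6 (22.6 to 31.0) and 67.3 (59.8 to 75.4) in the same order of libraries. Its 2.53-fold higher level in ILCpro_KO than in ILCpro_WT (2.08 to 3.09) and 3.69-fold lower level in ILCpro_WT than in ALP (3.07 to 4.46) gave the largest log2 ratios among the members. Its last exon is 97.6% to 99.1% identical to 3 copies, Ccnb1-ps, Gm8416 and Gm12856, which are not in the gene table, so its count is uncertain. Ccna2, cyclin A2, which acts from S phase to early mitosis, stood at 81.9, 22.3 and 53.4 CPM, a 2.39-fold ratio of ILCpro_KO to ILCpro_WT (1.93 to 2.98). Ccnb2, the other B cyclin, stood closer, at 138, 68.4 and 116 CPM.

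Cks2, a small subunit that binds CDK1, moved least in this group. In ALP, ILCpro_WT and ILCpro_KO its levels were 293 CPM (277 to 310.0), 203 (192 to 215) and 269 (254 to 285). It supplied 6.51%, 10.2% and 8.43% of all member UMIs in these libraries. The polo kinase Plk1 stood at 42.5, 15.6 and 31.0 CPM, and Aurka, the kinase of the spindle poles, at 58.6, 25.8 and 40.6 CPM. Both had their lowest level in ILCpro_WT, outside the intervals of the other libraries.

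Among genes of chromosome structure, Top2a (chromosome 11, 98992943 to 99024189), the topoisomerase that untangles sister chromatids, stood at 519 CPM (497 to 541), 232 (219.6 to 244) and 354 (337 to 373) in ALP, ILCpro_WT and ILCpro_KO. It supplied 11.5%, 11.6% and 11.1% of the member UMIs. Mki67, the proliferation antigen Ki-67 that coats mitotic chromosomes, stood at 194, 90.6 and 129.6 CPM. Smc4, a condensin subunit, stood at 182, 87.5 and 125 CPM. The ratios of ILCpro_KO to ILCpro_WT were close in all 3 genes, at 1.53 (1.42 to 1.65), 1.43 (1.27 to 1.61) and 1.43 (1.27 to 1.62).

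At the kinetochore, which ties chromosomes to spindle fibres, Cenpa, the histone variant of the centromere, stood at 229 CPM in ALP, 108 in ILCpro_WT and 179 in ILCpro_KO. Cenpf, a large kinetochore protein, stood at 203, 86.3 and 123 CPM, and the motor Cenpe at 83.8, 31.5 and 55.4 CPM. Cenpa was 1.65-fold higher in ILCpro_KO than in ILCpro_WT (1.49 to 1.83) and Cenpf 1.42-fold (1.26 to 1.61). The checkpoint kinase Bub1 had few UMIs, 84, 37 and 69, which gave 20.4, 6.07 and 15.7 CPM. Its ratio of 2.59 between ILCpro_KO and ILCpro_WT was accordingly loose (1.71 to 3.98). Bub1b, another checkpoint protein, stood at 45.9, 19.5 and 35.8 CPM. Nuf2 and Ndc80, which form the microtubule-binding NDC80 complex, stood at 34.7, 13.0 and 25.5 CPM and at 29.2, 12.8 and 21.4 CPM.

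The chromosomal passenger complex corrects wrong attachments and later marks the division plane. Its kinase Aurkb stood at 82.6, 37.9 and 65.5 CPM, its subunit Birc5 (survivin) at 240.3, 115 and 177 CPM, and Cdca8 (borealin) at 203, 92.7 and 148 CPM. Their ratios of ILCpro_KO to ILCpro_WT were 1.73 (1.45 to 2.06), 1.54 (1.39 to 1.71) and 1.59 (1.42 to 1.79), so these 3 members differed by similar factors. Among genes of ubiquitin-dependent exit, the APC/C activator Cdc20 stood at 116, 41.8 and 69.1 CPM and the ubiquitin-conjugating enzyme Ube2c at 281, 124 and 187 CPM. Cdca3, a trigger of mitotic entry that is itself an APC/C substrate, stood at 115, 57.3 and 101 CPM. Cdc20 was 1.67-fold lower in ILCpro_KO than in ALP (1.45 to 1.94), whereas for Cdca3 that ratio was 1.14, with an interval from 0.999 to 1.30 that reached 1.

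Spindle genes had the largest difference between ALP and ILCpro_WT of the 7 groups, 2.51-fold (2.36 to 2.67). Nusap1, which bundles spindle microtubules, stood at 147 CPM (136 to 159), 50.7 (45.2 to 56.7) and 73.4 (65.6 to 81.9). It was 2.00-fold lower in ILCpro_KO than in ALP (1.75 to 2.30), the largest such ratio among the members. Kif11, the motor that pushes spindle poles apart, stood at 69.98, 24.3 and 40.4 CPM, and Tpx2, which activates Aurora A on the spindle, at 107, 45.1 and 76.6 CPM. Tacc3, a partner of Aurora A on spindle fibres, lay closer to its ALP level in ILCpro_KO than Nusap1 did. It stood at 62.2 CPM (54.8 to 70.3), 26.3 (22.3 to 30.7) and 57.5 (50.6 to 65.0), and its levels in ALP and ILCpro_KO overlapped. The remaining spindle genes, Hmmr, Kif20b, Kif2c, Kif22, Ckap2 and Ckap2l, stood at 10.3 to 30.0 CPM in ILCpro_WT, 16.2 to 53.1 CPM in ILCpro_KO and 23.8 to 71.4 CPM in ALP.

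For the central spindle and cytokinesis, Prc1, which crosslinks the midzone microtubules, stood at 156, 71.5 and 94.2 CPM. Its ratio of ILCpro_KO to ILCpro_WT, 1.32 (1.15 to 1.51), was the smallest on the log2 scale. A transcript of Rccd1 shares 400 bases with its last part, so its count is uncertain. Kif23 and Racgap1, the motor and the GTPase activator that form centralspindlin, stood at 77.8, 25.1 and 52.9 CPM and at 54.7, 24.3 and 45.6 CPM. Cep55, which brings the abscission machinery to the midbody, stood at 32.8 CPM (27.5 to 38.8), 16.6 (13.5 to 20.1) and 33.8 (28.5 to 39.7), level between ALP and ILCpro_KO. Ect2, the exchange factor that activates RhoA, and Anln (anillin) stood at 35.2, 12.0 and 19.2 CPM and at 26.0, 9.35 and 15.5 CPM. Kif20a stood at 25.03, 11.6 and 19.8 CPM, and since a Cdc23 transcript shares 400 bases with its end, this count is uncertain too.

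To compare cells at equal depth, each cell was thinned at random to 1000 UMIs, which left out 4 ILCpro_WT cells. A cell with at least 5 of its 1000 UMIs from the 40 genes is called mitosis-high. Mitosis-high cells made up 25.8% of ALP (exact Clopper-Pearson interval 22.8 to 29.0, 209 of 810 cells), 10.6% of ILCpro_WT (9.25 to 12.1, 194 of 1825) and 17.0% of ILCpro_KO (14.4 to 19.997, 122 of 716). The 3 intervals did not overlap. Cells at 0 UMIs ran in the opposite order, with 35.4% of ALP, 55.4% of ILCpro_WT and 43.7% of ILCpro_KO, and cells at 10 or more made up 10.99%, 4.16% and 6.98%. The class is a range of a continuous sum: 39, 38 and 27 cells lay at exactly 4 UMIs and 30, 34 and 22 at exactly 5. Without thinning, 88.4%, 68.3% and 87.7% of these cells had any member UMI, and 24.1%, 9.40% and 17.0% took at least 0.5% of their UMIs from the members. Mitosis-high cells were the larger ones, with a median of 6916 against 3959 UMIs in ALP, 4807.5 against 2738 in ILCpro_WT and 8236.5 against 4909 in ILCpro_KO. Of the 18 ILCpro_KO cells with at least 3 of 1000 UMIs from T cell markers, 1 was mitosis-high (5.56%, 0.141 to 27.3), at a median of 3725.5 UMIs. That interval holds the shares of all 3 libraries, so these cells give no resting background.

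**Figure D2:**
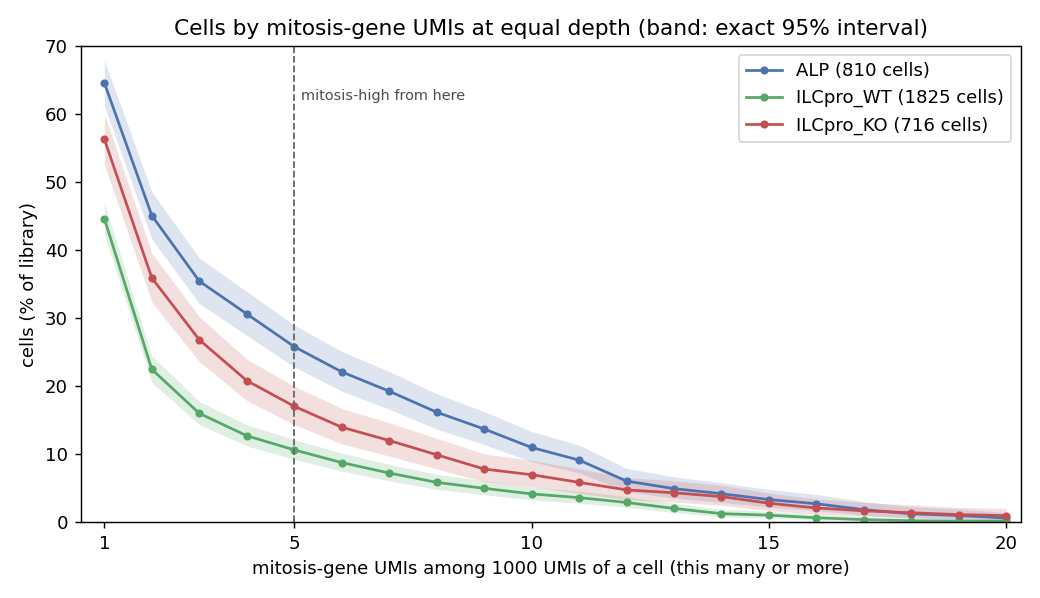
Share of cells (% of library, vertical axis) with at least the given number of mitosis-gene UMIs among 1000 UMIs (horizontal axis), per library, with exact 95% intervals as bands. The curve of ILCpro_WT runs lowest, and at the dashed line the shares are 25.8% for ALP, 10.6% for ILCpro_WT and 17.0% for ILCpro_KO.

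Mitosis-high cells were a minority that held most of the mitosis RNA, with 80.3% of the member UMIs in ALP, 64.8% in ILCpro_WT and 66.0% in ILCpro_KO. The median mitosis-high cell had UMIs of 7 different members in each library. How far each gene was concentrated there was measured with the class rebuilt from the other 39 members. Ube2c was 24.7-fold higher in mitosis-high than in other cells of ILCpro_WT (20.5 to 29.9) and Cenpf 18.7-fold (15.2 to 23.2), and in ALP Hmmr, a spindle assembly factor, was 20.6-fold higher (13.5 to 33.1). Smc4 was at 3.002-fold in ALP, 3.31-fold in ILCpro_WT and 2.77-fold in ILCpro_KO, the lowest member in ALP and ILCpro_KO. In ILCpro_WT the lowest was Ckap2, a microtubule-associated protein, at 3.20-fold (1.84 to 5.46). In ALP, Top2a was seen in 61.96% of cells that were mitosis-high by the other members and in 15.7% of the rest, at 1000 UMIs per cell.

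Within mitosis-high cells the 3 libraries lay closer together than over all cells, with ALP still highest and ILCpro_WT lowest. The members summed to 9760 CPM (9604 to 9918) in those of ALP, 8017 (7842 to 8196) in those of ILCpro_WT and 8634 (8458 to 8811) in those of ILCpro_KO. ILCpro_KO was 1.08-fold above ILCpro_WT (1.04 to 1.11), and 30 of 40 members were higher in it. Past 1.5-fold upward were 3 members, Ccna2 (0.68), Ccnb1 (0.65) and Tacc3 (0.61 on the log2 scale), against 8.41% of genes, and downward 0, against 4.16%. Ccnb1 stood at 241, 134 and 216 CPM in the mitosis-high cells of ALP, ILCpro_WT and ILCpro_KO, and Ccna2 at 176, 92.3 and 154 CPM. Prc1 went the other way, at 321 CPM in ILCpro_WT and 265 in ILCpro_KO. In ILCpro_WT against ALP 8 members were past 1.5-fold downward in these cells, against 9.70% of genes, led by Ccna2 at -0.86 and Ccnb1 at -0.80, and 0 upward, against 5.90%. In ILCpro_KO against ALP 0 members were past it, against 6.74% of genes downward and 7.05% upward. The sum in mitosis-high cells was 1.22-fold lower in ILCpro_WT than in ALP (1.18 to 1.25), with 40 of 40 members lower. For ILCpro_KO it was 1.13-fold lower than in ALP (1.10 to 1.16), with 32 of 40 members lower. In the remaining cells, below the threshold, the genotypes lay further apart. Their members summed to 1406 CPM in ALP, 842 in ILCpro_WT and 1437 in ILCpro_KO, a ratio of ILCpro_KO to ILCpro_WT of 1.71 (1.64 to 1.78), and 40 of 40 members were higher in ILCpro_KO. The class was defined from the members' own sum, so levels inside it are a description.

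ILC development was followed with 8 genes of the ILC precursor stage (Zbtb16, Rora, Il7r, Gata3, Pdcd1, Icos, Il18r1 and Cxcr6), which stood at 209, 1534 and 323 CPM in ALP, ILCpro_WT and ILCpro_KO. All 8 were past 1.5-fold lower in ILCpro_KO than in ILCpro_WT, with a median log2 ratio of -1.94. Mitosis-high cells of ILCpro_WT became fewer as these genes became more abundant in a cell. In ILCpro_WT they made up 16.9% (14.2 to 19.8, 123 of 728) of cells with 0 precursor UMIs, 9.45% (7.20 to 12.1, 55 of 582) of cells with 1 to 2 and 3.11% (1.79 to 4.996, 16 of 515) of cells with 3 or more. The difference between the last and the first was -13.8 percentage points (-17.0 to -10.5). In ILCpro_KO the shares were 18.2% (15.1 to 21.7, 102 of 559), 14.2% (8.76 to 21.3, 19 of 134) and 4.35% (0.110 to 21.9, 1 of 23). That difference was -13.9 points, and its interval of -19.4 to 3.98, with 23 cells in the highest bin, spans 0. At 2000 UMIs per cell, with 10 UMIs as the threshold and 53 cells in that bin, it was -3.93 points (-11.9 to 8.21). In ILCpro_WT 209 cells lay at exactly 2 precursor UMIs and 146 at exactly 3. Summed mitosis RNA over the 3 bins was 2697, 1860 and 792 CPM in ILCpro_WT and 3237, 3148 and 1994 CPM in ILCpro_KO.

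**Figure D3:**
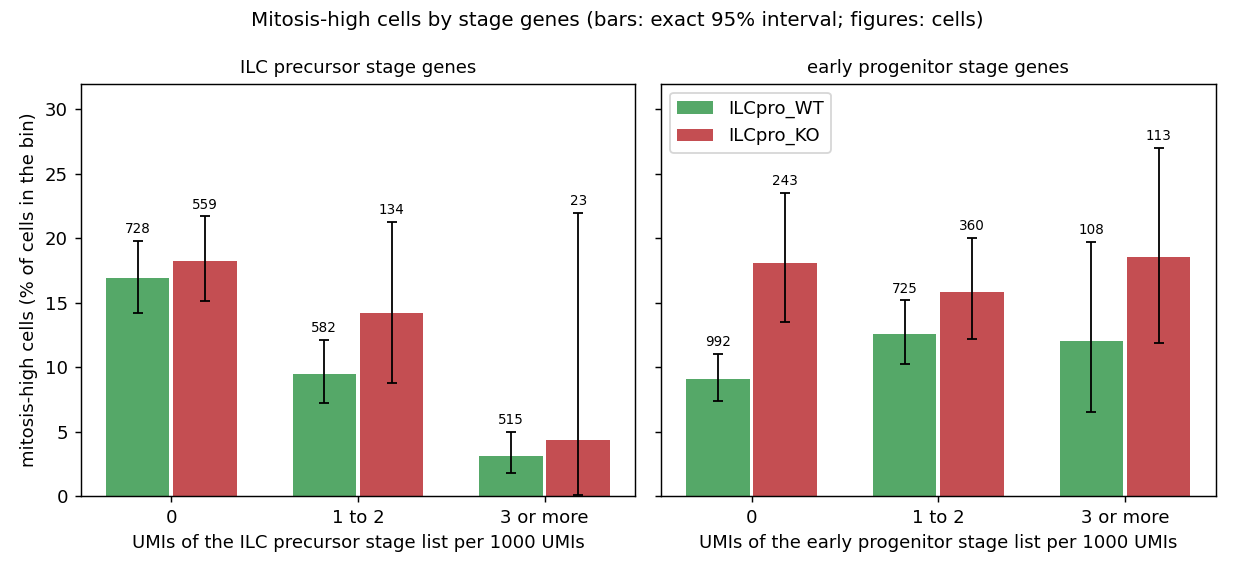
Share of mitosis-high cells (% of the cells in the bin) in ILCpro_WT and ILCpro_KO by the number of UMIs from the precursor stage list (left) and the early progenitor stage list (right) among 1000 UMIs. Bars are exact 95% intervals, and the number printed over each bar is the number of cells. Over the precursor bins the share in ILCpro_WT is 16.9%, 9.45% and 3.11%.

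The 2 genotypes held very different mixes of these bins. All 8 genes behind the bins were lower in ILCpro_KO. A different mix of stages therefore cannot be told apart from lower expression of these genes at the same stage. Cells of 1 bin need not be at the same stage in both genotypes. Cells with 0 precursor UMIs made up 39.9% of ILCpro_WT and 78.1% of ILCpro_KO. Within those cells the mitosis-high shares of 16.9% and 18.2% had overlapping intervals. With the bin mix of ILCpro_WT, the bin-wise shares of ILCpro_KO gave 13.0% mitosis-high cells, against 10.6% measured in ILCpro_WT. This 13.0% is loose and was given no interval. It puts 28.2% of the weight on the ILCpro_KO bin with 3 or more precursor UMIs, 1 of 23 cells (4.35%, 0.110 to 21.9). With the mix of ILCpro_KO, the shares of ILCpro_WT gave 15.1%, against 17.0% measured in ILCpro_KO. A cell with 0 of 1000 UMIs may still express these genes at a low level.

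Within cells with 0 precursor UMIs the members summed to 4556 CPM in ALP, 2697 in ILCpro_WT and 3237 in ILCpro_KO. ILCpro_KO was 1.20-fold above ILCpro_WT there (1.17 to 1.24), against 1.60 in all cells. Ccnb1 alone stayed past 1.5-fold upward, with a log2 ratio of 0.75, against 4.92% of genes, and 0 members were past it downward, against 0.966%. The members' median was 0.22, against 0.10 over all genes tested in these cells, so the members stood only slightly above genes in general. Of the members 39 of 40 were higher, with Kif22, a chromosome arm motor, at -0.04. The next members after Ccnb1 were Ccna2 at 0.56, Bub1 at 0.53 and Tacc3 at 0.50. In ILCpro_WT against ALP 29 of 40 members were past 1.5-fold downward in these cells, against 8.75% of genes, and 0 upward, against 3.41%. In ILCpro_KO against ALP 7 members were past it downward, against 4.99%, and 0 upward, against 5.59%. The sum was 1.69-fold lower in ILCpro_WT than in ALP (1.64 to 1.74) and 1.41-fold lower in ILCpro_KO than in ALP (1.37 to 1.44). In ALP, whose gate requires IL-7Ra, Il7r supplied 146 of the list's 209 CPM, and 110 cells held its UMI. The ALP cells left out here were therefore mostly cells with an Il7r UMI. Leaving out cells with markers of other lineages, the mitosis-high share at 0 precursor UMIs was 14.8% (12.1 to 17.8, 94 of 637) in ILCpro_WT and 17.3% (13.6 to 21.6, 65 of 375) in ILCpro_KO.

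**Figure D4:**
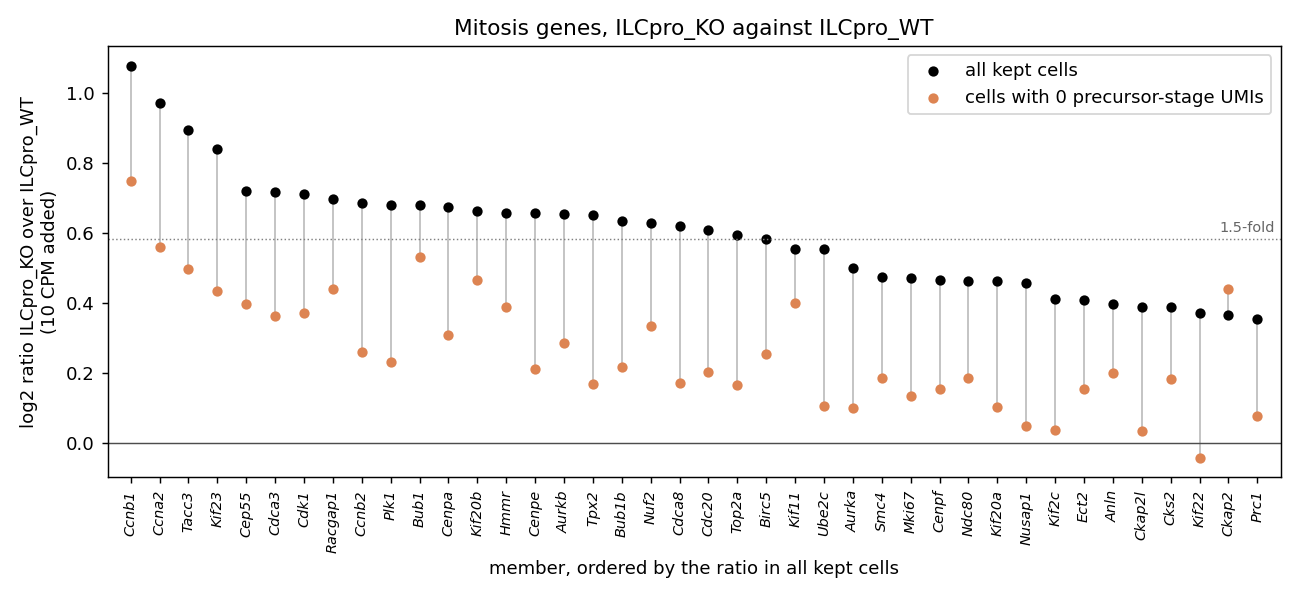
Log2 ratio of ILCpro_KO over ILCpro_WT with 10 CPM added (vertical axis) for each of the 40 mitosis genes (horizontal axis), in all kept cells (black) and in cells with 0 precursor-stage UMIs (orange). The dotted line marks 1.5-fold. The orange points lie below the black ones for all members but Ckap2, and Ccnb1 is the one orange point above the line.

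Markers of other lineages stood beside these values. Cells that carried them are rated by their share of mitosis-high cells. Mitosis-high cells made up 25.2% (17.7 to 33.99) of the 119 ILCpro_WT cells with such markers and 19.0% (14.0 to 25.02) of the 210 in ILCpro_KO, against 14.9% (6.20 to 28.3) of the 47 in ALP. In ILCpro_KO 22.7% (15.7 to 30.9) of the 128 neutrophil-monocyte cells and 15.4% (7.63 to 26.5) of the 65 conventional dendritic cells were mitosis-high. The 11 neutrophil-monocyte markers summed to 979, 494 and 4745 CPM in ALP, ILCpro_WT and ILCpro_KO, with Ngp and Camp at 0 in ILCpro_WT. The 5 mast cell-basophil markers stood at 1104 CPM in mitosis-high and 29.2 CPM in other cells of ILCpro_WT, where 5 of the 6 cells past their threshold were mitosis-high. In ILCpro_KO these levels were 68.1 and 886 CPM, and 0 of 12 such cells were mitosis-high (0 to 26.5). The 8 erythroid-megakaryocyte markers stood at 1409 CPM in mitosis-high and 60.7 CPM in other cells of ILCpro_KO. Only 4 ILCpro_KO cells passed their threshold and 1 of them was mitosis-high, so the higher level may rest on very few cells. Over all cells these markers stood at 200.5, 72.5 and 390.3 CPM, with Pf4 at 0 in ALP. The 8 conventional dendritic markers summed to 233, 289.8 and 798 CPM, with Batf3 at 0 in ALP. Markers of B cells (7 genes) stood at 42.7 to 93.1 CPM, those of T cells (3 genes) at 0.729 to 99.2 CPM and those of NK cells (6 genes) at 1.46 to 36.95 CPM. The T and NK marker sums were highest in ILCpro_KO, and Cd3e, Cd3g, Ncr1, Gzma and Eomes were at 0 in ALP. With all cells of other lineages left out, 40 of 40 members were still higher in ILCpro_KO than in ILCpro_WT and the median log2 ratio was 0.63. With the same cells left out, the mitosis-high shares in ILCpro_WT were 14.8%, 9.75% and 2.97% over the 3 precursor bins.

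The precursor genes were also examined singly in ILCpro_WT. With each of the 8 genes, cells with its UMI were mitosis-high less often than cells without it, and for 5 the intervals did not overlap. The gap was slight for Icos, 10.3% (4.24 to 20.1) of 68 cells against 10.6%. It was also small for Cxcr6, 9.52% (1.17 to 30.4) of 21 cells against 10.6%. Zbtb16, whose product PLZF marks ILC precursors, had 2.65% (1.33 to 4.69) among its 415 cells, against 13.0% (11.3 to 14.8) in the rest. The share was 1.52% (0.315 to 4.39) of 197 cells with Pdcd1, the receptor PD-1, 2.35% (0.766 to 5.39) of 213 cells with Il7r and 4.32% (2.79 to 6.37) of 555 cells with the nuclear receptor Rora. Gata3, a factor that ILCs and T cells both require, had a smaller gap, 7.96% (5.77 to 10.6) against 11.7% (9.99 to 13.5). Outside the list, cells with a UMI of Tcf7 had 4.48% (2.89 to 6.59) against 13.2%, Tox2 3.13% (1.57 to 5.54) against 12.4%, and Id2, an inhibitor of E proteins, 6.61% (4.99 to 8.56) against 13.8%. For Bcl11b the intervals overlapped, with 8% (4.20 to 13.6) of 150 cells against 10.9% (9.42 to 12.5). In ILCpro_KO, Id2 was found in 300 cells and had 12.3% (8.83 to 16.6) against 20.4% (16.7 to 24.6).

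The 8 early progenitor genes (Flt3, Dntt, Mef2c, Satb1, Nfil3, Mycn, Cpa3 and Cd34), at 3114, 719 and 1201 CPM, were past 1.5-fold higher in ILCpro_KO than in ILCpro_WT for 5 of 8, with a median of 0.92. In ILCpro_WT against ALP 3 of the 8, Nfil3, Mycn and Cpa3, were past 1.5-fold upward and 5 downward. The list thus mixes genes that go opposite ways between these libraries. As a sum it gave no such order in the ILC progenitors. In ILCpro_WT the mitosis-high share was 9.07% (7.36 to 11.03), 12.6% (10.2 to 15.2) and 12.0% (6.57 to 19.7) at 0, 1 to 2 and 3 or more early UMIs, and in ILCpro_KO 18.1%, 15.8% and 18.6%, with overlapping intervals. In ALP, whose gate requires Flt3, it was 37.04% (26.6 to 48.5), 29.5% (23.9 to 35.7) and 22.1% (18.4 to 26.0), and the first interval lay above the last. Cd34, a surface protein of early progenitors, was the early gene with intervals apart in ILCpro_KO: 31.6% (21.6 to 43.1) of its 79 cells were mitosis-high, against 15.2% (12.5 to 18.3) of the rest. In ILCpro_WT these shares were 18.9% (11.4 to 28.5) and 10.2% (8.82 to 11.7). Splitting on both lists, ILCpro_WT cells with 0 precursor UMIs had 17.5% without and 16.5% with early UMIs, and cells with precursor UMIs 5.56% and 8.08%. In ILCpro_KO these shares were 21.9% and 16.5%, and 6.67% (4 of 60) and 16.5% (16 of 97). Among ILCpro_KO cells with early UMIs the intervals were 12.9 to 20.6 without and 9.73 to 25.4 with precursor UMIs. They are too wide to show that these shares are equal.

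The mitosis genes were set beside 20 genes of DNA replication and repair in S phase, with at least 3 of 1000 UMIs as the threshold. Of ALP cells 35.6% (32.3 to 39.0) were past it. For ILCpro_WT this share was 13.1% (11.6 to 14.7), and for ILCpro_KO 27.8% (24.5 to 31.2). Cells past either threshold made up 52.8%, 21.2% and 41.2%. Cells past both were few, 8.52% of ALP, 2.52% of ILCpro_WT and 3.63% of ILCpro_KO. Cells past the mitosis threshold alone made up 17.3%, 8.11% and 13.4%, and cells past the S threshold alone 27.04%, 10.6% and 24.2%. ILCpro_WT was thus the lowest library in both phases. Over the precursor bins of ILCpro_WT, cells past either threshold made up 32.8% (29.4 to 36.4), 19.6% (16.4 to 23.0) and 6.60% (4.62 to 9.10), with no overlap of the intervals. The ILCpro_KO shares were 43.6% (39.5 to 47.9), 32.8% (24.97 to 41.5) and 30.4% (13.2 to 52.9) in the same bins, with overlapping intervals.

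**Figure D5:**
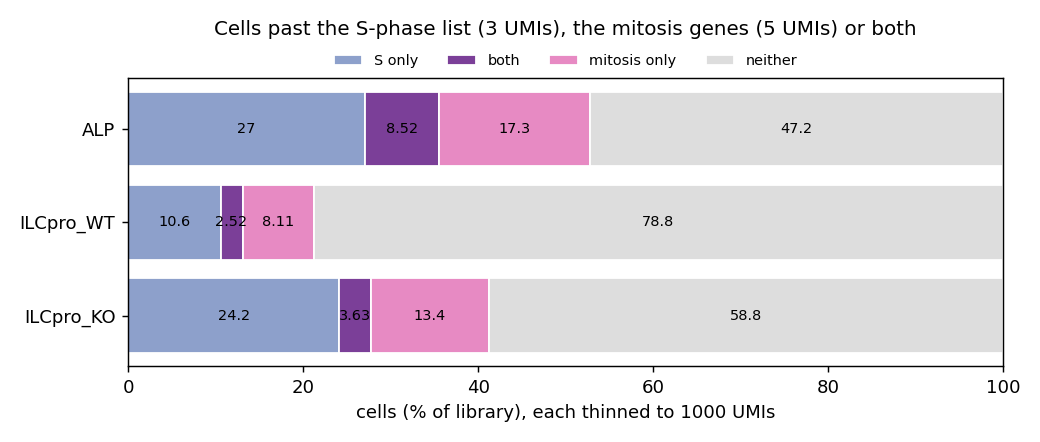
Cells of each library (% of library, horizontal axis), thinned to 1000 UMIs, split by whether they passed the S-phase list (at least 3 UMIs), the mitosis genes (at least 5 UMIs), both or neither. Cells past neither make up 47.2% of ALP, 78.8% of ILCpro_WT and 58.8% of ILCpro_KO.

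Other genes of the same pathways were counted by the same 1.5-fold rule over all cells, against the shares of all genes given above. Of the 20 S-phase genes 10 were past it upward in ILCpro_KO against ILCpro_WT and 17 downward in ILCpro_WT against ALP, with 0 in either direction in ILCpro_KO against ALP. The medians were 0.62, -0.73 and -0.10. Cdc45, a replicative helicase subunit, stood at 27.5, 13.5 and 36.95 CPM and Rrm2, of ribonucleotide reductase, at 113, 45.0 and 107 CPM in ALP, ILCpro_WT and ILCpro_KO. Of 26 kinetochore genes outside the members, 2 were past it upward in ILCpro_KO against ILCpro_WT, Mad2l1 and Spc25, and 13 downward in ILCpro_WT against ALP. The medians of this list were 0.29 and -0.60. Mad2l1, the checkpoint protein MAD2, stood at 55.2, 20.5 and 37.4 CPM. Of 15 further spindle genes tested these counts were 4 and 13, the medians 0.45 and -0.76, with the tubulin gene Tuba1b at 1314, 605 and 993 CPM. Of 12 condensin and cohesin genes they were 1 and 5, the medians 0.36 and -0.48, with the condensin gene Ncapg at 33.0, 9.02 and 20.1 CPM.

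The APC/C is the ligase that Cdc20 and Ube2c serve. Of 18 genes of its subunits and regulators 0 were past 1.5-fold in ILCpro_KO against ILCpro_WT in either direction. In ILCpro_WT against ALP 1 was past it downward, the APC/C inhibitor Fbxo5 (EMI1), at 62.9, 26.7 and 39.5 CPM. The median log2 ratios of the list were 0.12 and -0.21. Of 19 genes of mitotic entry control 3 were past it upward in ILCpro_KO against ILCpro_WT, with a median of 0.41. Among them Cdkn3, a phosphatase of CDKs, stood at 37.2, 11.8 and 31.2 CPM and the kinase Pbk at 76.3, 31.0 and 52.9 CPM. Wee1, the kinase that holds CDK1 inactive, stood at 26.97, 19.0 and 13.5 CPM, lowest in ILCpro_KO. Among 20 tested G1 cyclins, inhibitors and regulators 3 were past it upward in ILCpro_KO against ILCpro_WT and 0 downward, with a median of 0.27. Ccnd2, cyclin D2, stood at 402 CPM (383 to 422), 269 (256 to 282) and 675 (651 to 699.9), so it was highest in ILCpro_KO. In ILCpro_WT against ALP 4 were past it upward and 4 downward. The inhibitor Cdkn1c stood at 1.94, 23.1 and 18.7 CPM and Rbl2, a pocket protein of the DREAM complex, at 13.4, 35.3 and 22.8 CPM, both lowest in ALP, while Myc was highest in ALP at 82.9, 29.7 and 53.1 CPM.

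The genes outside the members whose UMIs followed the mitosis sum best across thinned cells were found by the mean Pearson correlation over the 3 libraries, among 2108 genes seen in at least 5% of cells of each. These values describe 810, 1825 and 716 cells that share a library and a fixed depth. Hmgb2, a chromatin protein, came first, with r of 0.68 in ALP, 0.66 in ILCpro_WT and 0.61 in ILCpro_KO. It stood at 3263, 3056 and 3004 CPM in mitosis-high cells and at 879, 492 and 887 CPM in other cells of these libraries. Next came the tubulin genes Tuba1b and Tubb5, the histone genes H2afz and H2afx, 2810417H13Rik (Pclaf), Lockd, Hmgb1, Stmn1, Cks1b, Hist1h1b, Ptma, Nucks1, Ube2s and Tubb4b, with mean r from 0.48 down to 0.30. The lowest mean r, -0.24, belonged to Malat1, a nuclear RNA. A sum of fixed depth forces some genes down when others rise.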

How the data were processed

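Single-cell mRNA of 3 sorted mouse bone marrow populations was measured with 10x Chromium v2, 1 library per group (ALP, ILCpro_WT, ILCpro_KO). The authors deposited raw UMI counts for every gene and cell barcode. Cell Ranger 2.0.1, STAR 2.5.1b, bcl2fastq 2.17 and the build mm10 are listed, with no roles, in the submitters' processing notes. How cells were called is not given in the sources used here. The 40 members and all gene lists were chosen with earlier results of these data known. Symbols were joined by Ensembl identifier to GENCODE vM21 (GRCm38), and promoters are RefSeq's.

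Barcodes numbered 812, 1834 and 716 in ALP, ILCpro_WT and ILCpro_KO. Cells with at least 500 genes and at most 10% mitochondrial UMIs were kept. For levels, the UMIs of all kept cells were added up and divided by the library's total in units of 1000000 UMIs (CPM). For log2 ratios 10 CPM was added to both levels, which understates changes of low genes, while folds are plain ratios of CPM. Each cell was thinned once to 1000 UMIs without replacement (seed 1). Exact intervals at 95% are Poisson for levels, Clopper-Pearson for shares and conditional binomial for ratios, and those of a difference of shares combine both Clopper-Pearson intervals. All cover counting error only. With 1 library per group no test was possible, and no p-value or standard error was computed. Outside the members, the genes named are the 15 most correlated with the mitosis sum and Malat1, the least (chosen after its value was seen), the stage genes with Tcf7, Tox2, Id2 and Bcl11b, and members at the ends of each list's ratios, with values in other comparisons beside them. Sort genes were looked up to check the labels. Doublets were scored with Scrublet (scanpy 1.11.5) and kept. In an alternative 5, 27 and 4 cells with the top scores were taken out, 0.8% of a library per 1000 of its barcodes. Calculations used Python 3.11.15, numpy 2.4.6 and scipy 1.17.1, and were tested on simulated data. Further alternatives changed the class threshold, the depth, the cell filter, the pseudocount, the minimum level and the fold, and left out cells of other lineages or the 3 most abundant members. All were planned except the member count in cells with 0 precursor UMIs, which was added after seeing the data. The full set of shares over the precursor bins without cells of other lineages was also added to the plan.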

Additional observations from a re-analysis of the deposited data

Results flagged for a closer look

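In 4 contrasts ILCpro_KO and ILCpro_WT went opposite ways. Each compares the mitosis-high share in 2 sets of cells of the same library, the difference between the libraries was not tested, and the 4 come from the S-phase list and the stage genes seen in at least 20 cells of both libraries. Cells with at least 3 of 1000 UMIs from the S-phase list were mitosis-high more often than other cells in ILCpro_WT, by 9.92 percentage points (19.2% of 239 cells against 9.33% of 1586). In ILCpro_KO the same difference was -5.50 points (13.1% of 199 cells against 18.6% of 517), and in ALP the shares were 23.96% and 26.8%.

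Cells with a UMI of Il18r1, a receptor chain for interleukin 18 in the precursor list, were mitosis-high in 25.4% (15.3 to 37.9) of 63 ILCpro_KO cells, against 16.2% (13.5 to 19.3) of the rest, a difference of 9.16 points. In ILCpro_WT the shares were 5.17% (3.09 to 8.05) and 11.9% (10.3 to 13.7), a difference of -6.74 points. In ALP the share was 47.1% (23.0 to 72.2) of 17 cells, against 25.3%. For Mef2c, an early lymphoid factor, the difference was -0.17 points in ILCpro_KO and 4.47 in ILCpro_WT. For Cpa3, a mast cell protease gene, it was -3.02 points in ILCpro_KO and 1.22 in ILCpro_WT, with overlapping intervals in both libraries.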

How the results depend on the processing

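No paired analysis was possible because each group is 1 library. Under the alternatives run, the direction of the summed ratios and of the stage differences stayed as reported. Single members turned: Cep55 in ILCpro_KO against ALP without cells of other lineages, and Kif22 in ILCpro_KO against ILCpro_WT in cells with 0 precursor UMIs (-0.04). The order of ALP, ILCpro_KO and ILCpro_WT held for each set of 3 shares below. With at least 3 of 1000 UMIs as the threshold the mitosis-high shares were 35.4% (ALP), 16% (ILCpro_WT) and 26.8% (ILCpro_KO), with at least 8 UMIs 16.2%, 5.86% and 9.92%, and without Top2a, Cks2 and Ube2c 20%, 8.11% and 13.5%. The ILCpro_WT share was 12.4% at 2000 UMIs, where 383 shallower ILCpro_WT cells were left out, and 13.1% with at least 1000 genes and at most 5% mitochondrial UMIs. The other 22 of 33 alternative shares stayed inside the interval of the reported value.

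The log2 ratio of the summed level between ILCpro_KO and ILCpro_WT was 0.68. It became 0.71 without cells of other lineages, 0.51 with the stricter cell filter, 0.73 without the 3 most abundant members, 0.57 outside ribosomal and mitochondrial UMIs and 0.74 as a mean over cells. Between ILCpro_WT and ALP it was -1.17, and under the first 4 of these settings -1.25, -1.01, -1.24 and -1.11. Between ILCpro_KO and ALP it was -0.49, and -0.54 without other lineages, -0.54 outside ribosomal and mitochondrial UMIs and -0.44 as a mean over cells.

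Counts of members past a fold also changed with the setting. In ILCpro_KO against ILCpro_WT the 22 became 1 with a pseudocount of 50 CPM (1.47% of all genes), 1 at 2-fold (1.48%), 6 with the stricter filter (6.06%) and 1 in cells with 0 precursor UMIs (4.92%). In ILCpro_WT against ALP the 39 became 22 with 50 CPM (2.62%) and 21 at 2-fold (3.06%). In ILCpro_KO against ALP the 7 became 13 with 1 CPM (10.3%), 1 with 50 CPM (1.22%), 0 at 2-fold (1.43%) and 13 without other lineages (5.56%). A larger pseudocount shrinks the ratio of genes at low levels by construction, while the cause of the other shifts was not tested. The stage difference in ILCpro_WT was -18.7 points at 3 UMIs and -6.32 at 8, and in ILCpro_KO it ran from -19.9 at 3 UMIs to -3.93 at 2000 UMIs per cell. The number of ILCpro_KO cells with 3 or more precursor UMIs, 23, limits its precision.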
